A study of Mus musculus with 47 samples.

Results

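The 9 genes described here are feedback regulators and transcriptional targets of mitogen-activated protein kinase (MAPK) signalling: Dusp6, Dusp4, Spry2, Spry4, Spred1, Spred2, Etv4, Etv5 and Egr1. They were chosen by name, from known function, with earlier results of these data known. All 9 were among the 13947 genes of an allele-resolved count table of 47 single mouse induced pluripotent stem cells (iPSCs). The iPSCs came from fibroblasts of a hybrid female embryo, with a laboratory-strain mother (Mus) and a Mus musculus castaneus father (Cast), carrying an X-linked eGFP reporter and reprogrammed by lentiviral Oct4, Sox2, Klf4 and c-Myc. They were grown with serum and leukaemia inhibitory factor, and no MEK inhibitor is named for that medium. The labels also name ascorbic acid, whereas the methods describe iPSC controls passaged without it after colonies were picked. Every GEO label reads only iPSC. The class of each cell came from the deposited column names: 23 cells read as bi-allelic on the X chromosome (XX), 15 with reads from the Cast X only (X-Cast O-Mus) and 9 with reads from the Mus X only (X-Mus O-Cast). All 47 were sorted on 1 plate, and no separate cultures or clones were named, so each class was treated as 1 sample, and class, lineage and culture history cannot be told apart. No p-value was therefore computed.

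MAPK signalling runs from growth factor receptors such as the FGF receptors through RAS, RAF and MEK to ERK, which switches on both effectors and brakes of its own activity. DUSP phosphatases remove the activating phosphates from ERK, and Sprouty and SPRED proteins act upstream at the level of RAS and RAF. Etv4, Etv5 and Egr1 encode transcription factors whose genes respond to ERK. In mouse pluripotent cells FGF and ERK activity favours exit from the naive state, and cells with 2 active X chromosomes are known for lower output of this pathway than cells with 1, in part through X-linked genes such as Dusp9 and Klhl13. The comparison of interest was the level of the 9 genes in cells with 2 active X chromosomes against cells with 1.

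The data are sparse for these genes. Summed allelic counts per cell ranged from 71682 to 216451, with medians of 164722 in XX, 168885 in X-Cast O-Mus and 179357 in X-Mus O-Cast cells, and the shallowest cell was X-Mus O-Cast. On the X chromosome the Mus share of counts was 46.9% to 58.5% in XX cells, at most 1.25% in X-Cast O-Mus cells and at least 97.6% in X-Mus O-Cast cells. The level of a gene is given as its counts from both alleles per 10000 allelic counts of the cell. Because counts come only from positions that differ between the strains, levels were not compared between genes. Only Etv5, Egr1 and Etv4 reached a mean of 5 counts per cell (28.9, 7.47 and 5.02), and Etv4 only just. The 5 low genes had a mean from 1 to under 5, a band set after the values were seen (Spred1 4.70, Spred2 4.45, Spry4 1.89, Dusp4 1.43, Dusp6 1.00). Spry2 had 5 counts in all. Pluripotency markers identified the cells: 21 of the 22 listed genes were in the table and all 21 were read. Of 17 fibroblast markers in the table, 8 had no read in any cell (Col1a2, Prrx1, Postn, Lum, Dcn, Pdgfrb, Lox and Thbs1), and their summed level ran from 0 to 2.11 in XX, 0 to 1.63 in X-Cast O-Mus and 0 to 2.18 in X-Mus O-Cast cells, with medians of 0.179, 0.178 and 0.156. The summed level of 15 early-lineage markers had a median of 1.59 in XX, 1.55 in X-Cast O-Mus and 1.66 in X-Mus O-Cast cells, with ranges of 0.477 to 3.63, 0 to 6.13 and 0.0942 to 12.001, and Fgf5, Gata6, Pdgfra, Cdx2 and Elf5 had no read.

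Start-site sequences were read from RefSeq (GRCm38.p6), from 250 bases before to 50 after the start, for the members it listed; 5 of the 9 had an entry (Dusp6, Spry2, Spred1, Spred2 and Etv5). The windows of 3 are shown, chosen after the values were seen: the related Spred1 and Spred2, both with higher means in X-Mus O-Cast cells, and Etv5, the member with the most counts. Capitals mark each GGAA or its reverse complement, the core letters bound by ETS factors such as ETV4 and ETV5.
Spred1, chr2:117120821-117121120, plus strand: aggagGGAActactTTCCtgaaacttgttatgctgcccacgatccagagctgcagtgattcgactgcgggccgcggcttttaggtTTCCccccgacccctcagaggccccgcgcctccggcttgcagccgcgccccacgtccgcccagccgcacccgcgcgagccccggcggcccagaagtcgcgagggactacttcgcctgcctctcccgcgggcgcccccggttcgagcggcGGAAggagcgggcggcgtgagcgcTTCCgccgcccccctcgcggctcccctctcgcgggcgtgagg
Spred2, chr11:19924192-19924491, plus strand: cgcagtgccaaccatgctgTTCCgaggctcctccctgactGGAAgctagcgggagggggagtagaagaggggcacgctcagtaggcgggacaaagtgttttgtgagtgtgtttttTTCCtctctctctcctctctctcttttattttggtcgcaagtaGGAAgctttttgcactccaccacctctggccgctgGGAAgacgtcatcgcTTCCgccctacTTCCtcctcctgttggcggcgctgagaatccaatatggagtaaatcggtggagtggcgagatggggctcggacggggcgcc
Etv5, chr16:22439521-22439820, minus strand: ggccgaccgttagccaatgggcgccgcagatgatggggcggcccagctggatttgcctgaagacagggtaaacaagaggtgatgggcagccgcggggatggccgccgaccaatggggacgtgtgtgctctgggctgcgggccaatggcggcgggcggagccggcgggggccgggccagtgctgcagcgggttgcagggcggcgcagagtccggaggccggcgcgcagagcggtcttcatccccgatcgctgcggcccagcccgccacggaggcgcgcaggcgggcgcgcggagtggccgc
The Spred1 window held 5 GGAA matches on either strand, the Spred2 window 7 and this Etv5 window 0, and a second Etv5 window (chr16:22438319-22438618) held 6. The Dusp6 window held 6 and the Spry2 window 5. The core is short: 96.0% of 32817 promoter windows held at least 1, with a median of 3. The longer letters CCGGAA, present in 14.9% of windows, the AP-1 letters TGANTCA, present in 7.81%, and the CRE letters TGACGTCA, present in 1.79%, were in none of the 6 windows except for 1 CCGGAA in that of Spry2.

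Dusp6 and Dusp4 encode ERK phosphatases, Dusp6 the cytoplasmic one and Dusp4 a nuclear one. Dusp4 (chromosome 8, 34807297 to 34819894) was read in 4 of 9 X-Mus O-Cast cells but in 1 of 23 XX cells and 1 of 15 X-Cast O-Mus cells. Its level ran from 0 to 1.39 with a median of 0 in X-Mus O-Cast cells, and the single XX and X-Cast O-Mus cells with reads stood at 0.425 and 0.121. These rest on 58, 7 and 2 counts. The mean level was 19.2-fold higher in X-Mus O-Cast than in XX cells (0.355 against 0.0185, 95% interval of the pooled count ratio 9.80 to 55.8). Without the X-Mus O-Cast cell that held 25 of the counts it was 12.2-fold higher, and without the only XX cell with reads at least 42.5-fold higher, against a floor of 3 counts over that class. The 5 X-Mus O-Cast cells without a read overlapped with the other classes. The share of autosomal counts on chromosome 8 had a median of 5.66% in X-Mus O-Cast and 5.37% in XX cells, and the 2 highest X-Mus O-Cast cells, at 7.86% with no Dusp4 count and at 6.24% with 14, stood above the highest XX cell (6.11%). Dusp6 (chromosome 10, 99263231 to 99267489) was read in 3 cells of each class, with highest levels of 0.503 in XX, 0.681 in X-Cast O-Mus and 0.279 in X-Mus O-Cast cells and medians of 0. Its mean was 2.03-fold higher in X-Cast O-Mus and 1.47-fold higher in X-Mus O-Cast than in XX cells, with pooled ratio intervals of 0.886 to 3.48 and 0.434 to 2.79, both spanning 1, so no difference was detectable at this depth. Leaving out 1 X-Cast O-Mus cell with 12 counts brought the former to 1.09-fold, and leaving out the XX cell with 9 counts to 3.77-fold.

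Spry4 and Spry2 encode Sprouty proteins, inhibitors of receptor tyrosine kinase signalling. Spry4 (chromosome 18) differed between classes in the share of cells with reads, although the intervals given next overlap and cells are not replicates of a class. It was read in 6 of 9 X-Mus O-Cast cells (66.7%, 95% Clopper-Pearson interval 29.9 to 92.5%), in 4 of 23 XX cells (17.4%, 4.95 to 38.8%) and in 3 of 15 X-Cast O-Mus cells (20.0%, 4.33 to 48.1%). After each cell was thinned to 71682 counts, the numbers were 6, 4 and 2 cells. Levels ran from 0 to 1.09 with a median of 0.419 in X-Mus O-Cast cells, and from 0 to 0.586 and 0 to 0.543 with medians of 0 in XX and X-Cast O-Mus cells. The mean was 7.01-fold higher in X-Mus O-Cast than in XX cells (0.355 against 0.0506, interval 3.96 to 12.3), and 63.8% of pairs of 1 cell from each class had the higher level in the X-Mus O-Cast cell, 8.70% in the XX cell and the rest were tied. Leaving out the XX cell with 9 counts raised this to 13.5-fold, and leaving out the X-Mus O-Cast cell at 1.09 brought it from 2.81 to 2.38 on the log2 scale. The X-Cast O-Mus mean was 1.46-fold that of XX cells (interval 0.798 to 3.12), which was not a detectable difference. Spry2 (chromosome 14, 105891947 to 105896819) had 5 counts in 2 XX cells and none in 24 single-X cells. A count of 0 there allows up to 3 counts over the single-X cells, against which the XX mean was at least 1.80-fold higher, but the interval of the pooled count ratio ran from 0 to 1.04 and spanned 1, and for X-Mus O-Cast cells alone the floor lay above the XX level.

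Spred1 and Spred2 encode SPRED proteins, which bind neurofibromin and dampen RAS. Spred2 (chromosome 11, 19924375 to 20024026) was read in 7 of 9 X-Mus O-Cast, 12 of 23 XX and 9 of 15 X-Cast O-Mus cells. Its levels ran from 0 to 4.19 (median 0.208) in X-Mus O-Cast, 0 to 1.08 (median 0.112) in XX and 0 to 0.730 (median 0.102) in X-Cast O-Mus cells, and apart from the single cell at 4.19 the 3 ranges overlapped throughout. The mean was 3.87-fold higher in X-Mus O-Cast than in XX cells (0.746 against 0.193, interval 2.19 to 4.14). That cell held 57 of the 88 counts of its class, and without it the ratio was 1.64-fold and no longer past 2. In X-Cast O-Mus cells the mean was 0.994 of that in XX cells (interval 0.599 to 1.298). Spred1 (chromosome 2, 117121374 to 117182279) was read in 4 of 9 X-Mus O-Cast, 9 of 23 XX and 6 of 15 X-Cast O-Mus cells, close to equal shares, with medians of 0 and highest levels of 1.69, 1.37 and 1.19. Its mean was 2.79-fold higher in X-Mus O-Cast than in XX cells (0.511 against 0.183, interval 2.10 to 4.08) and 1.98-fold higher without the X-Mus O-Cast cell with 23 counts, which is the cell that held the 57 Spred2 counts. The ratio for X-Cast O-Mus cells was 1.39 (interval 1.05 to 2.08), and without 1 cell in turn it reached down to 0.04 on the log2 scale.

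Etv4 and Etv5 encode PEA3-type ETS transcription factors, induced by FGF and ERK. Etv4 (chromosome 11, 101769742 to 101785371) was read in 7 of 9 X-Mus O-Cast cells, 13 of 23 XX cells and 8 of 15 X-Cast O-Mus cells. Levels ran from 0 to 3.63 with a median of 0.722 in X-Mus O-Cast, from 0 to 1.11 with a median of 0.119 in XX and from 0 to 0.947 with a median of 0.109 in X-Cast O-Mus cells. The median X-Mus O-Cast cell thus stood above most cells of the other classes, although the ranges overlapped. The mean was 3.96-fold higher in X-Mus O-Cast than in XX cells (0.915 against 0.231, interval 2.38 to 4.29), the X-Mus O-Cast cell was higher in 70.5% of cell pairs and lower in 19.8%, and 1.33% of the 4149 genes at 5 counts or more had a ratio as high. Etv4 reached 5 counts only through the X-Mus O-Cast cells where it is high, so that share is no support for a difference. The highest of these cells, at 3.63, was the shallowest of the plate, and without it the ratio was 2.49-fold. In X-Cast O-Mus cells the mean went the other way, at 0.671 of the XX mean (interval 0.488 to 1.06, spanning 1). Etv5 (chromosome 16, 22381309 to 22439719) had the most counts of the 9 genes, 1360, and was read in all 9 X-Mus O-Cast, 18 of 23 XX and 13 of 15 X-Cast O-Mus cells. Its levels ran from 0.156 to 3.23 (median 0.956) in X-Mus O-Cast, from 0 to 7.89 (median 1.54) in XX and from 0 to 9.26 (median 1.04) in X-Cast O-Mus cells. The mean in X-Mus O-Cast cells was 0.871 of the XX mean (interval 0.741 to 1.03), and 50.7% of cell pairs were higher and 49.3% lower. The X-Cast O-Mus mean was 1.43-fold that of XX cells (interval 1.37 to 1.73), yet the median was lower, the 2 highest cells stood at 9.26 and 8.44, and leaving out 1 cell in turn moved the log2 ratio between 0.15 and 0.82. For these close relatives the X-Mus O-Cast ratio was thus past 2 for Etv4 and within counting error of 1 for Etv5, and the difference between them was not tested.

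Egr1 encodes a zinc-finger immediate early factor that is among the first genes induced by ERK. It lies on chromosome 18 and was read in 10 of 23 XX, 7 of 15 X-Cast O-Mus and 4 of 9 X-Mus O-Cast cells, shares of 43.5%, 46.7% and 44.4%. All 3 medians were 0, and the highest levels were 1.24 in XX, 1.40 in X-Mus O-Cast and 3.02 in X-Cast O-Mus cells. The mean was 2.41-fold higher in X-Cast O-Mus than in XX cells (0.703 against 0.292, interval 1.84 to 2.99). This came from the amount in cells with reads rather than from how many had any, and leaving out either of the cells with 61 and 43 counts brought it to 1.84-fold or 1.86-fold. In X-Mus O-Cast cells the ratio was 1.40 (interval 0.901 to 1.75). The share of autosomal counts on chromosome 18 had a median of 2.52% in XX, 2.33% in X-Cast O-Mus and 2.19% in X-Mus O-Cast cells. Whether it bears on the levels of Egr1 or Spry4 was not tested.

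**Figure D1:**
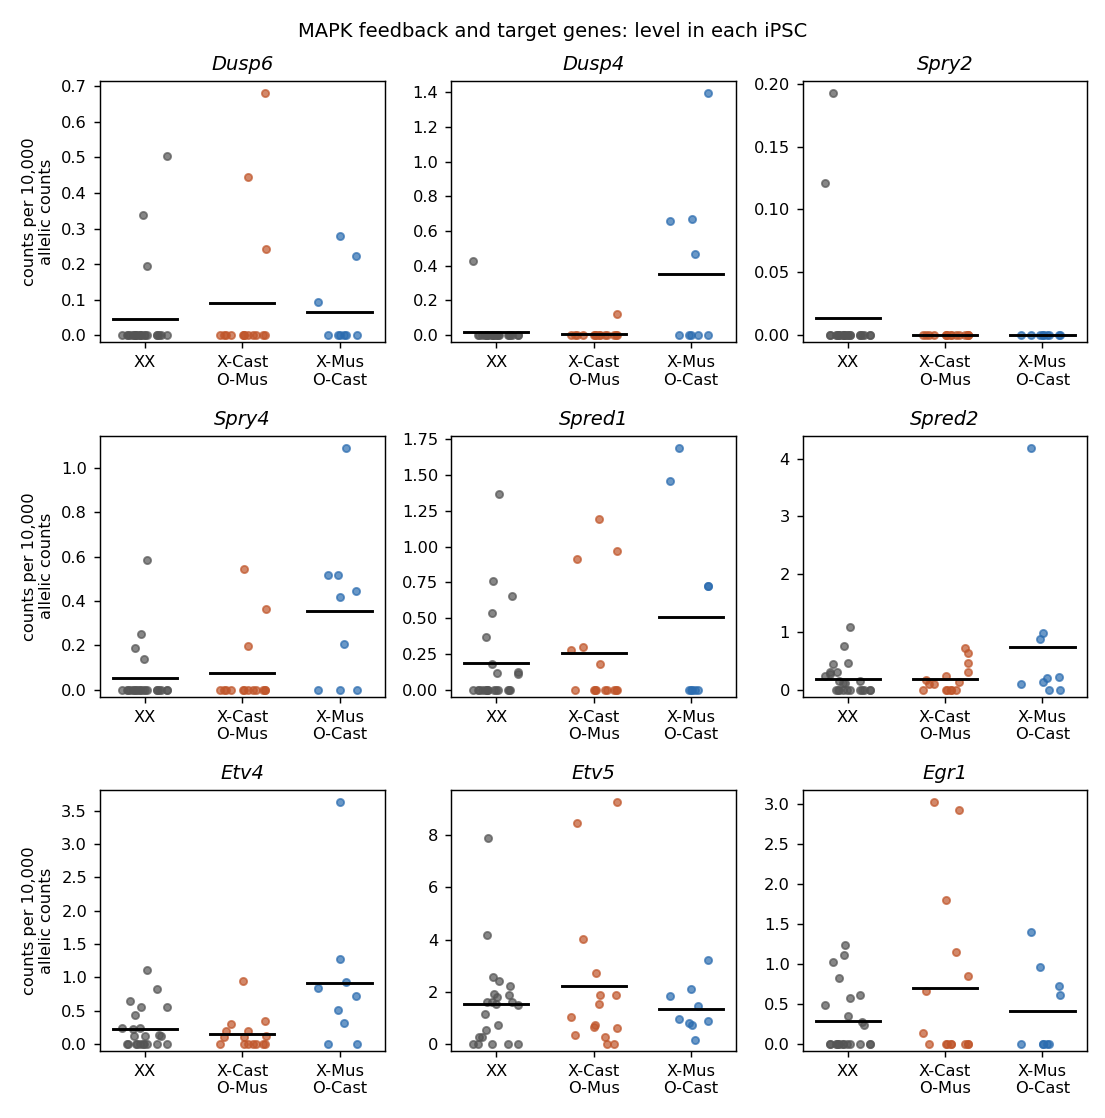
Level of each member in each of the 47 iPSCs, as counts from both alleles per 10000 allelic counts of the cell, with a separate linear axis for each gene. Points are cells, spread sideways only for visibility, and black bars are class means; Spry4 has reads in 6 of 9 X-Mus O-Cast cells against 4 of 23 XX cells, while Etv5 ranges overlap fully.

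A ratio of means past 2 either way is used here as a call. The 2 comparisons share their XX cells. Of the 3 members with a mean of at least 5 counts, 1 was past it in X-Mus O-Cast cells (Etv4), where 18.9% of 4149 such genes were, and 8.82% were higher. Among the 5 low genes, 4 were more than 2-fold higher (Dusp4, Spry4, Spred1 and Spred2), where 23.3% of 3813 genes with such counts were higher and 51.2% past 2-fold either way. Mean counts were 3.78 in XX and 2.80 in X-Cast O-Mus cells for Etv4, and 0.304 and 0.133 for Dusp4, so both reached their bands only through X-Mus O-Cast cells, and counting them is no support for a difference of the members. The 57 Spred2 and 23 Spred1 counts came from 1 cell, so without it only Dusp4 and Spry4 of the 5 stayed past 2-fold. Dusp6 averaged 0.783 counts in XX and 0.889 in X-Mus O-Cast cells, and Spry4 0.826 in XX cells. Dusp6 thus reached the band through X-Cast O-Mus cells and Spry4 through single-X cells, and counting them is no support either. In X-Cast O-Mus cells 1 of the 3 was past 2-fold (Egr1, higher), against 12.9% of genes, and 2 of the 5 low genes (Dusp6 higher, Dusp4 2.29-fold lower on 2 counts), against 42.7%, a share that does not set them apart. With both single-X classes pooled, 1 of 3 (Egr1) and 3 of 5 low genes (Dusp4, Spry4 and Spred2) were past 2-fold, against 11.2% and 38.7% of genes. The pooled Egr1 and Spred2 ratios, 2.03 and 2.07, fell under 2 on leaving out any of many single cells, while Dusp4 (7.47) and Spry4 (3.54) stayed above 2. On leaving out 1 cell in turn Dusp4 ran from 4.51 to 16.5, and the log2 ratio of Spry4 (1.82) from 1.46 to 2.77. The median log2 ratio of the 3 better-read members was 0.93 for single-X, 0.52 for X-Cast O-Mus and 0.49 for X-Mus O-Cast cells. The medians over all such genes were 0.04, 0.01 and 0.02. The single-X value is that of Etv4, which passed the filter only through X-Mus O-Cast cells. These medians are therefore no support for a difference of the members. Over every member with a ratio the median log2 ratio was 1.72 in X-Mus O-Cast (8 members) and 0.48 in X-Cast O-Mus cells (9 members), where all genes had medians of -0.04 and -0.02. Every cell had a read of at least 1 member. The number of members read per cell was 3 to 7 (median 5) in X-Mus O-Cast, 1 to 7 (median 3) in X-Cast O-Mus and 1 to 6 (median 3) in XX cells. The summed level of all 9 had medians of 3.94, 2.78 and 2.40 in the same order, with X-Mus O-Cast cells from 1.35 to 8.75 and XX cells from 0.127 to 8.04. The summed level without Etv5 had medians of 2.88, 1.16 and 0.792, with X-Mus O-Cast cells from 1.19 to 7.79 and XX cells from 0.127 to 3.43. Etv5 had the most counts, and its X-Mus O-Cast mean was 0.871 of the XX mean, so leaving it out widens the difference.

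**Figure D2:**
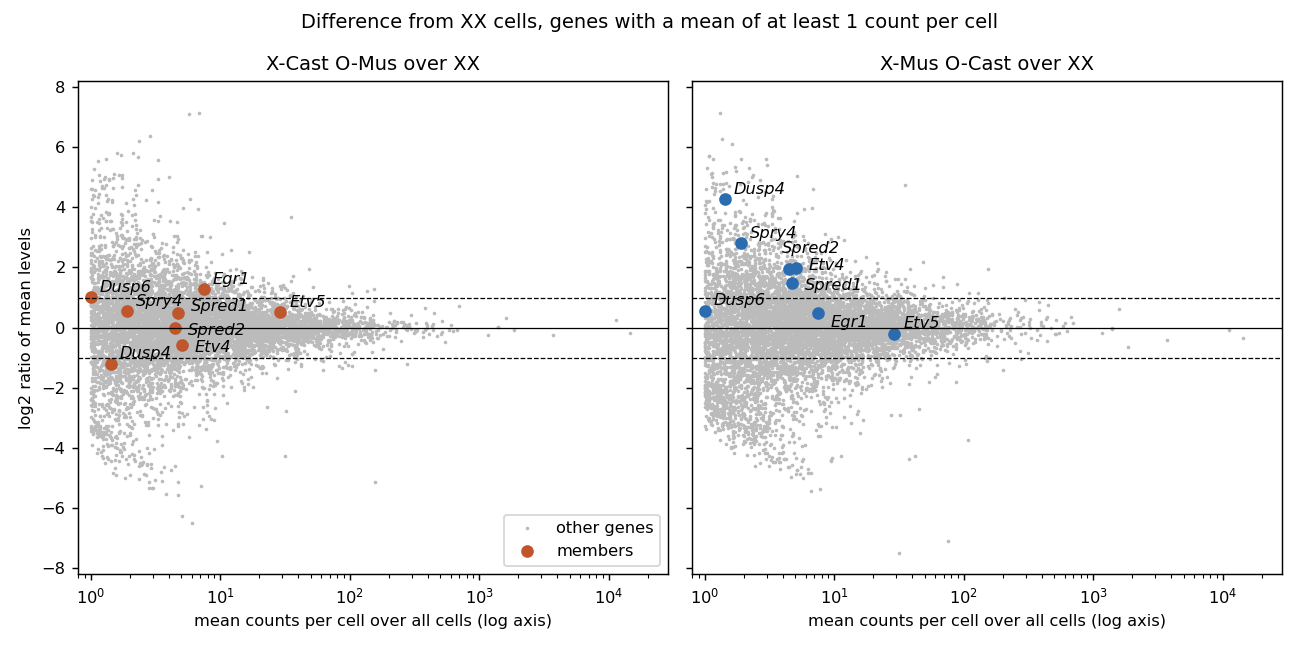
Log2 ratio of mean levels, X-Cast O-Mus over XX (left) and X-Mus O-Cast over XX (right), against the mean counts per cell on a log axis, for genes at a mean of 1 count or more. Grey points are other genes, coloured points the members, and dashed lines mark 2-fold; in X-Mus O-Cast cells Dusp4, Spry4, Spred1, Spred2 and Etv4 lie above the upper line, and Etv5 lies near 0.

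The allelic share differed between members. Over all autosomal genes the Mus share was 42.9% of counts, and 41.7% to 44.9% in single cells. Over the 9 members together it was 57.9% (1497 Mus and 1088 Cast counts, interval 56.0 to 59.8%). Etv4 was read mostly from the Mus allele, at 83.9% over all cells (78.6 to 88.3%), and at 78.2% in XX, 76.2% in X-Cast O-Mus and 91.6% in X-Mus O-Cast cells. Spred2, on the same chromosome, was read mostly from Cast: its Mus share was 28.7% overall (22.7 to 35.4%), and 30.3%, 33.3% and 25.0% in the 3 classes. The other genes of chromosome 11 had a median Mus share of 46.8% to 47.3% in the classes, between the shares of Etv4 and Spred2. Etv5 was at 62.4% (59.8 to 65.0%), with 60.6%, 64.4% and 61.9% by class, and Egr1 at 46.7% (41.4 to 52.1%), with 54.8%, 41.7% and 46.4% in XX, X-Cast O-Mus and then X-Mus O-Cast cells. Dusp4 had 63 Cast counts against 4 from Mus over its 6 cells with reads, and both alleles were read in 2 of them. Of 10335 autosomal genes with at least 10 counts, 6.76% had a Mus share as high as Etv4 and 20.1% as high as Etv5. A share as low as that of Spred2 was found in 26.2%, and as low as that of Dusp4 in 8.39%. The set was not matched for depth and takes in genes with far fewer counts than Etv4 or Etv5, whose shares scatter more by sampling. Spry4 had 5 Mus of 19 counts in XX cells but 20 of 20 in X-Cast O-Mus and 42 of 50 in X-Mus O-Cast cells (84.0%, 70.9 to 92.8%). These rest on 4, 3 and 6 cells. The autosomal share lies below equal reading of the alleles, and how far mapping sets the share of a single gene was not tested.

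Ratios to XX cells were also taken on each allele alone. For Spred2 the log2 ratio to XX cells in X-Mus O-Cast cells was 2.08 on the Cast and 1.66 on the Mus allele, where 1 cell held 43 of the 66 Cast and 14 of the 22 Mus counts. In the same order it was for Etv4 0.84 and 2.19, for Spred1 0.62 and 2.15, and for Spry4 0.93 and 4.67. For Egr1 in X-Cast O-Mus cells it was 1.80 on Cast and 0.69 on Mus. Within single cells one allele was often silent or missed. Of the cells with at least 10 counts of the gene, both alleles were read in 14 of 15 for Egr1, 25 of 33 for Etv5, 8 of 10 for Spred1 and 4 of 6 for Spred2, but in 5 of 11 for Etv4, where the other 6 read Mus only. Over 6833 autosomal genes with a mean of 1 to under 30 counts, 64.6% of such gene and cell combinations had both. Over the 47 cells the Cast and Mus levels of Egr1 had a Spearman rho of 0.76, those of Spred1 0.55, and those of Etv5 0.18, with depth and class shared by the points.

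**Figure D3:**
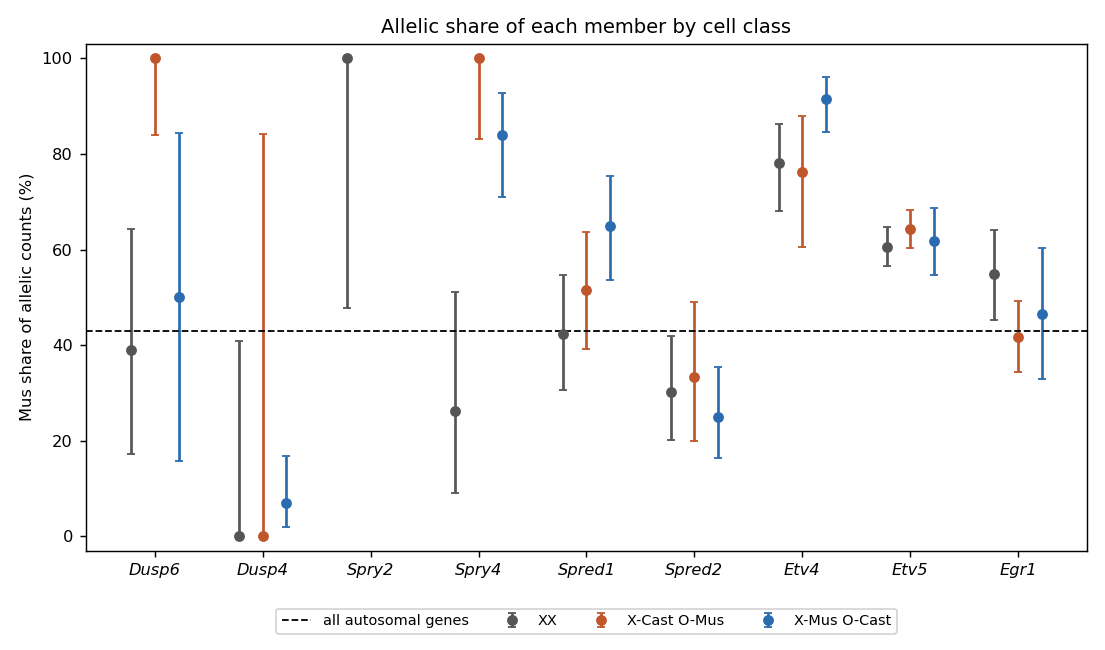
Mus share of the allelic counts of each member (percent) in each of the 3 classes, with 95% Clopper-Pearson intervals as bars for counting error only; the dashed line is the share over all autosomal genes, 42.9%. Etv4 lies above and Spred2 below the line in all 3 classes, and Dusp6, Dusp4, Spry2 and Spry4 rest on few cells.

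The members showed little co-variation from cell to cell. Among the 3 read in at least 0.5 of the cells (Spred2, Etv4 and Etv5) the Spearman rho of levels over 47 cells was 0.16 for Etv4 and Etv5, -0.022 for Spred2 and Etv4 and -0.26 for Spred2 and Etv5, with a median of -0.022. Pairs of 1877 other genes read in 28 to 40 cells had a median of 0.02, with 5% below -0.23 and 5% above 0.26. Over all 36 pairs of members the median was 0.09 and the range -0.27 to 0.37, and 3 pairs were at 0.3 or above: Spry4 with Etv4 (0.37), Dusp6 with Etv5 (0.35) and Spred1 with Etv5 (0.35). With the class mean taken out, the values were 0.15 for Spry4 with Etv4, 0.29 for Dusp6 with Etv5 and 0.40 for Spred1 with Etv5. Within the 9 X-Mus O-Cast cells, where Spry4 and Etv4 were higher on average, their value was -0.03. In counts this sparse, values of this size are descriptions only.

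**Figure D4:**
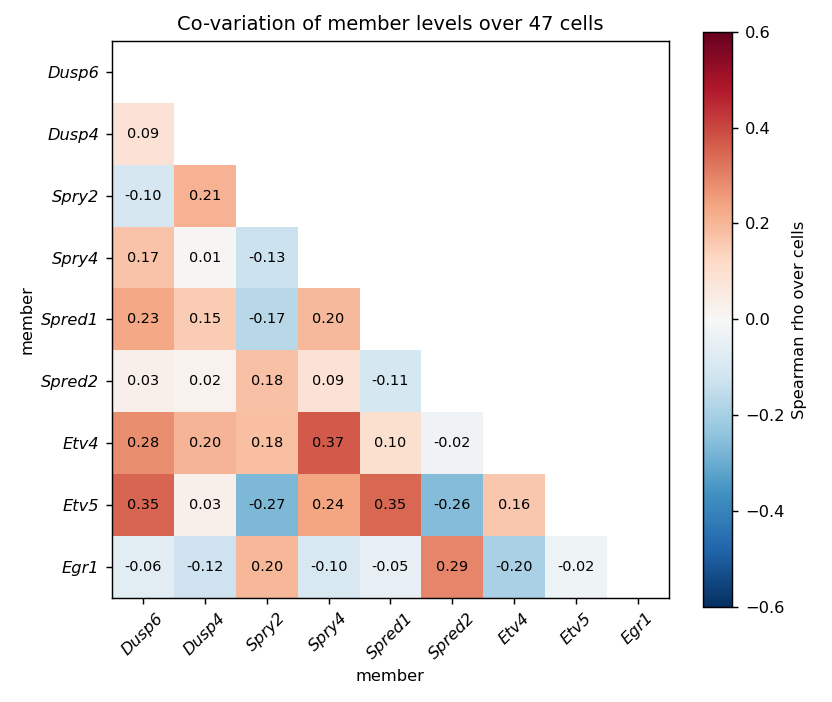
Spearman rho between the levels of each pair of members over the 47 cells, shown as colour and number. The highest value is 0.37 for Spry4 and Etv4 and the lowest -0.27 for Spry2 and Etv5.

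The genes whose levels followed the mean of the members' log levels most closely over the 47 cells, of 4146 others with a mean of at least 5 counts, were Set (rho 0.55), Tpgs1 (0.50), Apoa2 (0.49), Kansl2 (0.49) and Nme4 (0.48), and 95% of genes were below 0.27. None is in the pathway lists. Closest to Spred2 alone were Tnnt1 (0.49) and Smagp (0.46), to Etv4 Ttc37 (0.56) and Hmces (0.55), and to Etv5 D16Ertd472e (0.59) and Rif1 (0.53). These are the highest values of that whole set and carry no test.

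Other genes of the pathway were taken from lists of ligands and receptors, cascade kinases and adaptors, further targets and further feedback genes. Of their listed genes, 29 averaged 5 or more counts in a cell. In X-Cast O-Mus cells 5 of the 29 were over 2-fold higher than in XX cells and 1 lower (20.7% in all), while 7 of them in X-Mus O-Cast cells were higher and 5 lower (41.4% in all), beside the 12.9% and 18.9% of genes given above. The background shares were not matched for depth, and calls were more frequent at lower counts (42.7% and 51.2% at a mean of 1 to under 5). Some called genes also passed the filter through the cells where they are high, so no excess is read from these counts. The median log2 ratios of the 29 were 0.11 and 0.19. By group, 2 of 7 feedback genes were higher in either class and 2 lower in X-Mus O-Cast cells, and 3 of 10 cascade genes were higher in either class and 1 lower in X-Mus O-Cast cells. Of 6 further targets 0 were higher and 1 lower in X-Cast O-Mus cells, and 1 higher and 1 lower in X-Mus O-Cast cells. Of 6 ligands and receptors none passed in X-Cast O-Mus cells, and 1 was higher and 1 lower in X-Mus O-Cast cells. The 5 higher in X-Cast O-Mus cells were Lamtor3, Rps6ka2, Shoc2, Il17rd and Cbl, and the lower one was Epha4. In X-Mus O-Cast cells the 7 higher were Pdgfa, Gab1, Braf, Rps6ka2, Junb, Il17rd and Pea15a, and the 5 lower Kit, Hras, Epha4, Klhl13 and Cbl. These were named after their values were seen. Gab1, a docking protein below growth factor receptors, had log2 ratios of 0.80 in X-Cast O-Mus and 1.14 in X-Mus O-Cast cells, and Braf, a RAF kinase gene, 0.25 and 1.14. Kit, a receptor tyrosine kinase gene, had -0.03 and -2.76. Cbl, a ubiquitin ligase gene that acts on receptors, had 1.22 and -2.09, opposite signs.

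Il17rd, Rps6ka2 and Epha4 are described in full because, of the genes at 5 counts or more, they were past 2-fold alike in both single-X classes. Both comparisons use the same XX cells, so nothing is read from that likeness. Each also passed the filter through the cells where it is high: mean counts in XX cells were 3.35 for Il17rd and 2.17 for Rps6ka2, and Epha4 averaged 2.25 in single-X cells. Il17rd (Sef), a feedback inhibitor of FGF signalling that is itself induced by it, was read in 10 of 23 XX cells, with levels from 0 to 0.868 and a median of 0. It was read in 9 of 15 X-Cast O-Mus cells, up to 4.597 with a median of 0.166, and in 6 of 9 X-Mus O-Cast cells, up to 2.87 with a median of 0.148. Its mean was 4.50-fold higher in X-Cast O-Mus cells (interval 3.27 to 5.59) and 3.60-fold in X-Mus O-Cast cells (2.53 to 4.68), or 2.20-fold without the X-Mus O-Cast cell with 39 counts, again the cell with 57 Spred2 counts. Rps6ka2, a kinase of the RSK family downstream of ERK, was read in 7 of 23 XX, 9 of 15 X-Cast O-Mus and 5 of 9 X-Mus O-Cast cells. Its mean was 4.76-fold (3.58 to 6.92) and 2.94-fold higher (1.87 to 4.20), the latter 1.996-fold without the X-Mus O-Cast cell with 21 counts. Without the XX cell with 23 or that with 16 counts the former was 7.31-fold or 7.56-fold and the latter 4.52-fold or 4.67-fold. Epha4, an ephrin receptor counted among the targets, was 4.07-fold lower in X-Cast O-Mus and 3.91-fold lower in X-Mus O-Cast cells, with means of 0.523 in XX, 0.128 and 0.134, and 15 of 23, 6 of 15 and 2 of 9 cells with reads. Without the X-Mus O-Cast cell with 18 counts the last mean was 0.0640 of that in XX cells.

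The X-linked genes of the pathway were read almost only from 1 allele in single-X cells. The exceptions were 1 Mus count of Dusp9, beside 15 Cast, and 1 of Klhl13, beside 430 Cast, in X-Cast O-Mus cells. Dusp9 (chromosome X, 73639419 to 73643514), an ERK phosphatase, was read in 14 of 23 XX cells, 4 of 15 X-Cast O-Mus cells and 1 of 9 X-Mus O-Cast cells. Its mean level was 0.195, 0.0645 and 0.0163, which is 0.330 and 0.0836 of the XX mean, the last on 2 counts with an interval of 0.00834 to 0.262. In the XX cells 37 counts came from each allele. Klhl13, part of a ubiquitin ligase complex, had means of 2.18, 1.76 and 0.9499, which is 1.24-fold lower in X-Cast O-Mus and 2.30-fold lower in X-Mus O-Cast cells. Araf, a RAF kinase gene, had means of 0.513, 0.477 and 0.461, and 1 X-Cast O-Mus cell carried much of its class: the log2 ratio was -0.10 with it and -1.46 without it. Rps6ka3, another RSK gene, had 0.225, 0.0539 and 0.372. Its log2 ratio in X-Mus O-Cast cells was 0.73, or -1.38 without the 1 cell at 2.66, beside -2.06 in X-Cast O-Mus cells. Fgf13, Elk1 and Cnksr2 had fewer than 1 count per cell, with 29, 17 and 13 counts in XX cells and 2, 8 and 2 in X-Cast O-Mus cells, and no read in X-Mus O-Cast cells.

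**Figure D5:**
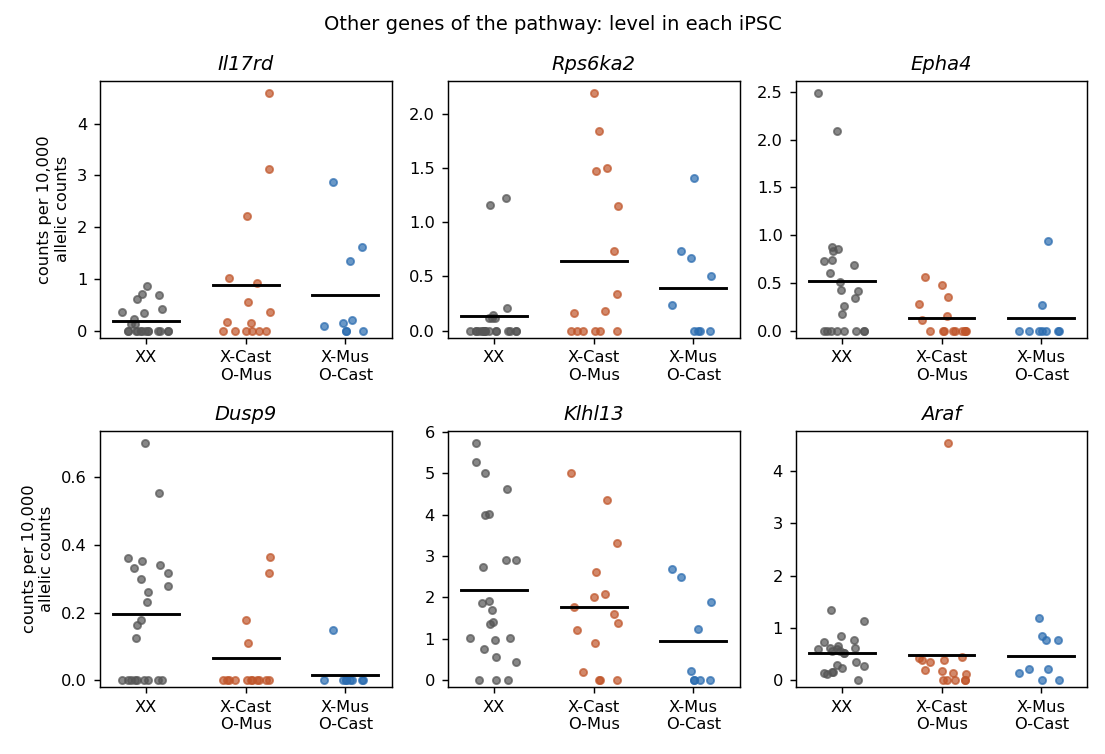
Level of 6 other genes of the pathway in each iPSC, as counts from both alleles per 10000 allelic counts, with a linear axis for each gene; points are cells and black bars class means. Il17rd and Rps6ka2 have means over 2-fold higher and Epha4 over 2-fold lower in both single-X classes, and Dusp9 has reads in 14 of 23 XX cells but 5 of 24 single-X cells.

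Beside these values stand those of the pluripotency list. Of its 20 genes at 5 counts or more, 4 were over 2-fold lower and 1 higher in X-Cast O-Mus cells and 6 lower and 0 higher in X-Mus O-Cast cells. Over all 4149 genes at that depth 6.07% were lower and 6.82% higher in the former, and 10.1% and 8.82% in the latter. The lower genes were Nanog, Klf5, Tbx3 and Prdm14 in X-Cast O-Mus cells, and these with Tfcp2l1 and Klf4, itself a reprogramming factor, in X-Mus O-Cast cells, against the same XX cells. Lin28a was the one higher in X-Cast O-Mus cells. The summed level of the list had medians of 100.2 in XX, 84.6 in X-Mus O-Cast and 84.2 in X-Cast O-Mus cells, with overlapping ranges. Whether this has a part in the differences of the MAPK genes was not tested.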

How the data were processed

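Single iPSCs from 1 plate were sequenced as 50-base single-end Nextera libraries from captured mRNA. Per the labels' processing notes, the authors used STAR 2.5.3a, SAMtools and mm10. For their related libraries the methods name an N-masked genome, SNPsplit and a minimum of 4 informative positions per gene. The deposited values are raw allelic counts per gene, 1 column per allele and cell. They hold no molecular identifiers, a read over several positions can be counted more than once, and nothing in the sources gives strand. Intervals therefore cover counting error only and are too narrow.

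Levels were both alleles per 10000 allelic counts of the cell. Ratios are of class means, and a class at 0 was set to 3 counts. Poisson, Clopper-Pearson and conditional binomial intervals used 95% (Python 3.11.15, scipy 1.17.1, numpy 2.4.6, pandas 2.3.3, matplotlib 3.10.9). The code was tested on simulated data. Members and lists were chosen with earlier results of these data known. Genes were named by a rule: all members, pathway genes past 2-fold alike in both single-X classes, X-linked pathway genes, and the closest genes by correlation. Other pathway genes and the pluripotency genes named were chosen after their values were seen. Positions are from GENCODE M21. The alternatives are given in the closing section.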

Additional observations from a re-analysis of the deposited data

Results flagged for a closer look

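Among the 9 X-Mus O-Cast cells, 15 genes (the 8 members with reads, with Il17rd, Rps6ka2, Epha4, Dusp9, Klhl13, Araf and Rps6ka3) were examined for a single cell far from the rest, and 7 had one, always the highest. By chance about 1 in 20 would, if the values were spread evenly around a mean, which counts with many zeros are not. The gap to the next cell as a share of the whole range was 0.767 for Spred2 (4.19 against 0.977, 57 counts), 0.649 for Etv4 (3.63 against 1.27, 26 counts in the shallowest cell), 0.526 for Spry4 (1.09 against 0.517) and 0.519 for Dusp4 (1.39 against 0.670). It was 0.823 for Rps6ka3 (2.66 against 0.469), 0.713 for Epha4 (0.935 against 0.268) and 1 for Dusp9, where a single cell had reads. The ratios without these cells stand beside the results for the members.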

How the results depend on the processing

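No paired analysis was possible because the cells carry no replicate number that ties those of different classes, and the plate columns in their names mark positions. The median log2 ratio of the 3 better-read members kept its sign under the alternatives run except on leaving out single cells or members. For single-X cells (0.93) it was 0.14 as a difference of mean ln(1 + level) and 0.15 on the Cast allele alone. For X-Cast O-Mus cells (0.52) it was 0.44 over the autosomal total, 0.18 on the ln scale and 0.23 on the Cast allele. For X-Mus O-Cast cells (0.49) it was 0.84 on the Cast allele and 1.72 with no filter, but 0.11 thinned and on the Mus allele, 0.10 on the ln scale, 0.34 pooled and 0.35 over the autosomal total. Leaving out single cells gave 0.15 to 0.82 for X-Cast O-Mus and -0.026 to 0.72 for X-Mus O-Cast cells, and leaving out single members -0.028 to 0.89 in the former and 0.15 to 1.24 in the latter, so with 3 genes the median depends on which are in it.

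The count past 2-fold, 1 of 3 in each comparison, was 0 on the ln scale in each, where levels this low can hardly differ by so much. For single-X it was also 0 over the autosomal total, pooled and thinned, for X-Cast O-Mus 0 when thinned and on the Mus allele, and for X-Mus O-Cast 0 on the Cast allele. With no filter it was 4, 3 and 5. With a mean of at least 1 count, chosen after seeing the data, it was 4, 3 and 5, with median ratios of 0.98, 0.50 and 1.72. On leaving out cells it ran from 0 to 2 for single-X and X-Cast O-Mus cells and stayed 1 for X-Mus O-Cast cells, and on leaving out members it went down to 0. Of the ratios past 2-fold, 2 turned direction on the Cast allele alone: Spry4 in single-X cells (-0.48) and Dusp6 in X-Cast O-Mus cells (-1.20, a bound set by 3 counts, since it had no Cast count there). Ratios under 2-fold also turned, such as that of Spry4 in X-Cast O-Mus cells when thinned (-0.97).

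The Mus share of member counts (57.9%) was 52.9% to 60.5% on leaving out members and 55.7% to 59.8% on leaving out cells. The median correlation (-0.022) was 0.045 as Pearson, -0.090 on class residuals, 0.083 thinned and 0.089 over all members. Depth leaves 6 of the 9 members under a mean of 5 counts per cell.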
